A study of Mus musculus with 6 samples.

Results

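The transcripts described are those of voltage-gated, chloride and TRP (transient receptor potential) ion channels in mouse lung. They were taken as the probes whose gene symbol in the platform annotation starts with Kcn, Scn and a digit, Scnn1, Cacn, Clcn, Clic and a digit, or Trpa, Trpc, Trpm or Trpv and a digit, leaving out Kcne3. A gene needed a value on at least 4 of the 6 arrays and was represented by 1 probe, the one measured on most arrays and then the first listed, which gave 85 genes among 11629 tested probes. The rule itself uses no ratio, but it was written with earlier results of these data known. Lung RNA of 6 C57 mice, mice 1 to 6, each sensitized and challenged with ovalbumin (OVA), was amplified and hybridised on 6 dual-colour arrays, 1 mouse per array, and the other channel of every array held 1 pool of amplified lung RNA from control C57 mice. The sources used here do not state age, sex, substrain, the OVA schedule or the number of mice in the pool. OVA sensitization and challenge is a widely used model of allergic airway inflammation.

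Each value is the log ratio that the authors deposited, centred on the array median and read as log2. Its direction is not given: the sample titles name the OVA mouse first, but genes commonly induced in this model lie on the negative side, among them Clca1, a secreted regulator of airway mucus, with a mean of -3.06. Signs below are therefore the deposited ones, neither is assigned to the OVA mice, and sizes are given as folds apart from the pool, which assume a logarithm of base 2. A natural logarithm is not excluded by the values and would make the folds larger. The ratios of all 6 arrays share the pool, and whole-lung RNA does not separate a change in the number of cells of a type from a change in RNA per cell. Ratios give no level, and the signal behind them was not part of the data used here, so a dim spot is not separable from a bright one. The lung markers Sftpc, a surfactant protein, and Scgb1a1, the main club cell secretory protein, had values on all 6 arrays.

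Ion channels are membrane proteins that let selected ions pass along their gradient. Voltage-gated sodium, potassium and calcium channels carry the electrical signals of nerve and muscle, and potassium channels also set the membrane potential of epithelial and immune cells. In the airways, sodium is absorbed through the epithelial sodium channel and chloride is secreted, and the balance of both sets the liquid layer on which cilia beat. TRP channels are mostly cation channels that respond to chemical, thermal, mechanical or receptor signals.

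The arrays carried values for between 10922 and 13132 probes, and the SD of the deposited ratio over probes was 0.21 in mouse 3 and between 0.32 and 0.47 in the others. Mouse 3 also stood apart in its Pearson correlation with the other arrays, 0.17 to 0.42 across 8663 probes, against 0.49 to 0.86 between the others (probes are not independent replicates). It had the other sign in Clca1, at 0.84 where the other mice lay between -4.20 and -3.11. The other mice formed 2 groups over the same probes. Correlations were 0.82 to 0.86 among mice 1, 2 and 4 and 0.85 between mice 5 and 6, against 0.49 to 0.75 between the groups. A split of mice 1, 2 and 4 from mice 5 and 6 is therefore not particular to channel genes. Sequences spotted 17 times scattered within each array with a median SD of 0.091 to 0.136. This is the spread between spots of 1 array and leaves out amplification and differences between arrays. Of the 119 channel genes with a probe, 86 had a value on at least 4 arrays, Kcne3 among them, 24 had values on 1 to 3 arrays and 9 had none.

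Ratios of the channel genes were mostly small. Of the 85, 18 passed an adjusted p of 0.05 (limma, two-sided test against 0, Benjamini-Hochberg adjustment over all tested probes), which is 21.2%, against a percent called of 24.4% over all probes. On the positive side were 11 of the 18, 12.9% of the 85 genes against 12% of all probes, and on the negative side 7, or 8.24% against 12.3%. An unadjusted p under 0.05 was reached by 27 of the 85, against 39.2% of all probes. The shares by adjusted p are near those of all probes and are no result about channels. The counts by family below stand beside the same 24.4%, and no family was tested against it. The median of the 85 means was 0.03 (all probes -0.003) and the median absolute mean 0.09 (all probes 0.11). The median SD between mice was 0.12, against 0.14 over all probes. In 48 of the 85 the mean lay within 0.1 of 0. The median standard error of the 85 means in limma was 0.05. Only 3 genes, Clic3, Scn7a and Scnn1b, were at least 1.5-fold apart from the pool, and all 3 passed the test (4.88% of all probes did both). Of the 60 channel genes measured in every mouse, 19 had the same sign in all 6, which is 31.7% against 30.2% of such probes, with 13 positive and 6 negative. Without mouse 3, 18 genes passed as well, 6 negative and 12 positive, but only 15 of them were among the 18 called over all mice: Cacnb4, Clcn7 and Kcnh3 lost the call, and Cacna2d3, Clcn1 and Kcnk7 gained it.

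The mice differed in how far the channel genes spread around 0. The SD over the channel genes was 0.41 in mouse 1, where 12 genes lay at least 0.5 from 0, and 0.30 in mouse 2, where 6 did. In mice 3 to 6 it was between 0.22 and 0.26, with 3 to 5 such genes. In mouse 3 it was 0.22 over the channel genes and 0.21 over all tested probes, which had SDs between 0.32 and 0.49 in the other mice. The median channel gene lay between -0.005 and 0.035 in each mouse. The highest gene was Clic3 in mice 3, 5 and 6, Kcnk2 in mouse 1, Scn7a in mouse 2 and Scnn1b in mouse 4, and the lowest was Kcnh7 in mice 1 and 5, Kcna3 in mouse 2, Kcne2 in mouse 3, Kcne4 in mouse 4 and Clic4 in mouse 6.

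**Figure D1:**
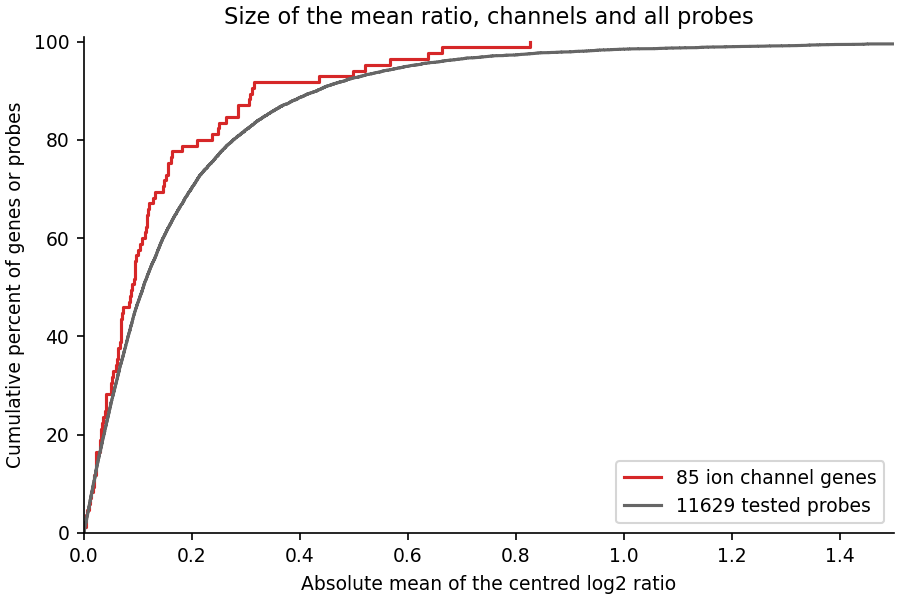
Cumulative percent (vertical axis) of the 85 ion channel genes, in red, and of all 11629 tested probes, in grey, by the absolute mean of the centred log2 ratio over the arrays (horizontal axis, shown up to 1.5). The red curve runs at or above the grey one over most of its length and ends at 0.83, the mean of Clic3.

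The highest mean among the channel genes was that of Clic3, a chloride intracellular channel protein. CLIC proteins share a fold with glutathione transferases and occur in soluble and membrane-bound forms. Clic3 had log2 ratios of 1.21, 0.93, 0.60, 0.67, 0.77 and 0.77 in mice 1 to 6. All 6 mice lay on the positive side and the lowest was above 0.5. The mean was 0.83 ± 0.22 (SD, n = 6), 1.77-fold apart from the pool with a 95% confidence interval of the log2 mean of 0.64 to 1.01 (limma, adjusted p = 0.0028), and leaving out any 1 mouse kept the mean between 0.75 and 0.87. The other 3 CLIC genes did not pass. Clic1, a broadly expressed member, was at -0.11 (-0.30 to 0.04, adjusted p = 0.143) and Clic5, which links membranes to the actin cytoskeleton and is abundant in lung, at 0.04 (-0.06 to 0.13, adjusted p = 0.48). Clic4, found in endothelium among other cells, spread from -0.75 in mouse 6 to 0.42 in mouse 1 around a mean of -0.24 (adjusted p = 0.27).

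The epithelial sodium channel, ENaC, had 2 of its 3 measured subunits past the threshold, both positive. This channel is built of alpha, beta and gamma subunits, absorbs sodium at the apical surface of airway and alveolar epithelium, and mice that overexpress the beta subunit in airways develop dehydrated mucus. Scnn1a, the alpha subunit, had ratios of 0.92, 0.54, 0.33, 0.42, 0.43 and 0.49 in mice 1 to 6. It was positive in 6 of 6 mice with mouse 1 well above the rest, and its mean of 0.52 ± 0.21 (SD, n = 6), 1.43-fold apart, passed (limma, adjusted p = 0.00597). Scnn1b, the beta subunit, had 1.32, 0.91, -0.02, 1.12, 0.25 and 0.26 in mice 1 to 6. Mice 1, 2 and 4 were high, mice 5 and 6 low but positive, and mouse 3 near 0. Its mean was 0.64 ± 0.55 (SD, n = 6), 1.56-fold apart (95% interval of the log2 mean 0.20 to 1.07), and passed narrowly (limma, adjusted p = 0.0437). The call was lost without any one of mice 1, 2, 4, 5 and 6 (adjusted p between 0.0597 and 0.122) and held without mouse 3 (adjusted p = 0.0213, mean 0.77). Scnn1g, the gamma subunit, was measured in 4 mice at 0.10, 0.33, 0.09 and -0.14 in mice 1, 2, 4 and 6, with 1 mouse on the other side of 0. Its mean of 0.10 ± 0.19 (SD, n = 4) did not pass (adjusted p = 0.446), with a 95% interval of -0.11 to 0.30. That interval overlapped the interval of Scnn1b and lay below that of Scnn1a (0.34 to 0.70). Mice 3 and 5 had no value for Scnn1g, so the subunits were not measured in the same mice. The differences between subunits were not tested.

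Club cell markers lay mostly on the same side as Clic3, Scnn1a and Scnn1b. In their list, 8 of 11 tested genes passed on the positive side and 1, Retnla, on the negative side. The mean over the list lay between 0.32 and 1.19 per mouse. It includes Retnla, whose mean of -2.81, with 5 of 6 mice negative, lies far below those of the other genes. Alveolar epithelial markers had 1 positive and 3 negative calls among 10 (per mouse -0.19 to 0.40). Genes made by alveolar type II cells lay on both sides, with means of 0.60 for Sftpc, -0.61 for Sftpa1 and -0.23 for Sftpd, which passed, and -0.05 for Abca3, which did not. Ciliated cell markers had 3 positive calls and 1 negative call among 7 (per mouse -0.03 to 0.48), and mucous cell markers 5 negative calls among 9 (per mouse -1.95 to 0.13). Over all tested probes, 12% passed on the positive side and 12.3% on the negative side. The part of cell composition in the channel ratios was not tested.

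**Figure D2:**
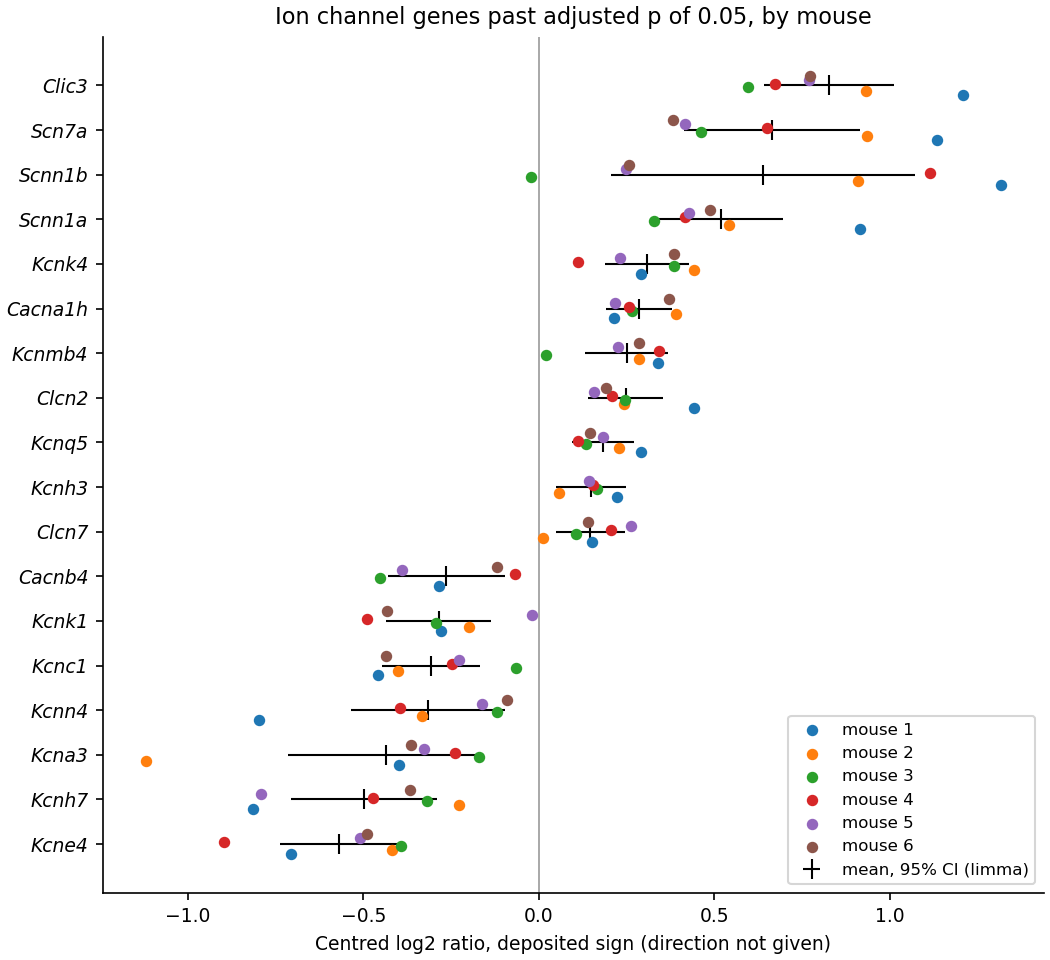
Centred log2 ratio (horizontal axis, deposited sign) of the 18 ion channel genes with an adjusted p under 0.05 in limma. Coloured points are the mice, and the black mark and line are the mean and its 95% confidence interval. Clic3, Scn7a, Scnn1b and Scnn1a lie farthest on the positive side and Kcne4, Kcnh7 and Kcna3 on the negative side, where a single mouse, mouse 2 at -1.12, sits far from the rest of Kcna3.

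Among the voltage-gated sodium channel genes, 1 of 4 passed. Scn7a encodes Nax, an atypical member that responds to the sodium concentration more than to voltage and is known from glia, sensory neurons, heart and lung. Its ratios were 1.13, 0.94, 0.46, 0.65, 0.42 and 0.38 in mice 1 to 6. All mice were positive, and mice 1 and 2 were the highest. The mean was 0.66 ± 0.31 (SD, n = 6), 1.58-fold apart (95% interval 0.41 to 0.92, limma, adjusted p = 0.00772), and it passed without each mouse in turn. The remaining 3, Scn1a, Scn8a and Scn10a, which carry nerve impulses in neurons, had means between -0.07 and 0.05 and did not pass. Markers of heart, endothelium and fat lay mostly on the same side. Heart muscle markers had 11 positive calls among 17 genes (per mouse 0.11 to 1.47), endothelial markers 6 positive calls among 11 (per mouse 0.16 to 0.84), adipocyte markers 5 positive calls among 8 (per mouse 0.57 to 1.44) and neuronal markers 2 positive calls and 1 negative call among 7 (per mouse -0.001 to 0.16). Of all tested probes, 12% had a positive and 12.3% a negative call. The part of the marked cell types in the ratio of Scn7a was not tested.

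To show the sequence in front of the genes with the largest means, the 250 bases before the annotated start are given for Clic3 (chr2:25456593-25456842, plus strand), Scn7a (chr2:66784911-66785160, minus strand), Scnn1b (chr7:121864788-121865037, plus strand) and, from the negative side, Kcne4 (chr1:78816661-78816910, plus strand), from RefSeq on GRCm38.p6 and read 5′ to 3′ along the gene. RefSeq promoter entries were matched by symbol for 71 of the 85 genes.
Clic3: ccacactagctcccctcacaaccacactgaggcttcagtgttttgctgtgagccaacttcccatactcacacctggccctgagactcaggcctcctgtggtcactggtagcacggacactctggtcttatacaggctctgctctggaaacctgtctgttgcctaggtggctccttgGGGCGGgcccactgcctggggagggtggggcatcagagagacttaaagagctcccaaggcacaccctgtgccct
Scn7a: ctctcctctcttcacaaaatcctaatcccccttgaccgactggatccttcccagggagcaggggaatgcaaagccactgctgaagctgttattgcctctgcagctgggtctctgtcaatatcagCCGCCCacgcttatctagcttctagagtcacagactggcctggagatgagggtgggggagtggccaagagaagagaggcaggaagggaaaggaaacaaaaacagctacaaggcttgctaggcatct
Scnn1b: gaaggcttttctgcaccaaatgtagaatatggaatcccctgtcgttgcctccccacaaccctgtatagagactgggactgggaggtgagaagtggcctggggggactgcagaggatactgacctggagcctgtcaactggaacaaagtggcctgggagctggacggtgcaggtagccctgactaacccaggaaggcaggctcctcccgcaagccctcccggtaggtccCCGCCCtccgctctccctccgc
Kcne4: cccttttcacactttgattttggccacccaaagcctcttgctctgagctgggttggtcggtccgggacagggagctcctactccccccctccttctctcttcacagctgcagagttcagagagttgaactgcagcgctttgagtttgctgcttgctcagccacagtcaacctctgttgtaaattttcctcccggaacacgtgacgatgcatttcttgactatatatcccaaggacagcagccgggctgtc
Capitals mark the GC box, GGGCGG on either strand. Its first base lay 74, 126 and 22 bases before the start in Clic3, Scn7a and Scnn1b, and 32.7% of 32851 promoter windows of the same length hold it. The TATA box TATAAA (12.4% of windows), the half-site TGTTCT of the glucocorticoid receptor (16.1%) and the forkhead site GTAAACA (3.17%) were searched on both strands and had no match in these 4 windows.

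The potassium channel genes reached smaller sizes and lay on both sides. Of 14 voltage-gated pore subunits, 5 passed, 3 negative and 2 positive, with a median mean of 0.03. Kcnh7, of the ether-a-go-go related family of brain, had ratios of -0.81, -0.23, -0.32, -0.47, -0.79 and -0.37 in mice 1 to 6. Mice 1 and 5 were lowest, none was above 0, and the mean of -0.50 ± 0.25 (SD, n = 6) passed (limma, adjusted p = 0.01, 1.41-fold apart), also without each mouse in turn. Kcna3, the delayed rectifier that sets the membrane potential of T cells and of macrophages, had -0.40, -1.12, -0.17, -0.24, -0.33 and -0.36 in mice 1 to 6. Mouse 2 lay far below the other 5, which lay between -0.40 and -0.17. Its mean was -0.44 ± 0.35 (SD, n = 6, 1.35-fold, limma, adjusted p = 0.0361). Without mouse 2 the mean was -0.30 and the spread smaller (adjusted p = 0.0225), while leaving out mouse 1, 4, 5 or 6 ended the call (adjusted p between 0.0659 and 0.0769).

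Kcnc1, a fast-gating neuronal channel, was at -0.31 ± 0.15 (SD, n = 6) with mice between -0.46 and -0.06 (limma, adjusted p = 0.0128). Its probe stands 6 rows from that of Gbp3, an interferon-induced GTPase with a mean of -1.57, and ratios of probes 6 rows apart correlated across the table (Pearson r = 0.13, 0.10 at 18 rows and 0.11 at 24 rows, against a median of 0.009 over the other 27 spacings up to 30 rows), so the ratio is uncertain. On the positive side, Kcnq5, an M-type channel of neurons and smooth muscle, lay between 0.11 and 0.29 in the 6 mice (mean 0.18 ± 0.07, SD, n = 6, adjusted p = 0.0153), and lost its call without mouse 2 (adjusted p = 0.054). Kcnh3, a forebrain channel, was at 0.15 ± 0.06 (SD, n = 5, limma, adjusted p = 0.0456) and lost its call without each of the 6 mice in turn (adjusted p between 0.0581 and 0.125). A second Kcnh3 probe, measured in 4 mice, had a mean of 0.03 and no call. Kcna6, a delayed rectifier, had the mean farthest from 0 among the pore subunits that did not pass, -0.21 ± 0.25 (SD, n = 6, adjusted p = 0.129), with mouse 1 at -0.64 and mice 3 and 5 above 0. Kcna5, a pore of pulmonary artery smooth muscle, was at 0.09 (interval -0.04 to 0.21), and Kcnh2, which repolarises the heart, was measured in 4 mice, between -0.08 and 0.26. Kcnq1, which serves repolarisation in heart and potassium recycling in epithelia, was at 0.04 (-0.13 to 0.25) and did not pass (adjusted p = 0.648).

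Accessory potassium channel subunits held the lowest mean of all 85. Kcne4 encodes a single-span beta subunit that inhibits several voltage-gated potassium channels, Kcnq1 and Kcna3 products among them. It had ratios of -0.71, -0.42, -0.39, -0.90, -0.51 and -0.49 in mice 1 to 6. All 6 were negative, mouse 4 lowest and mouse 3 highest, with a mean of -0.57 ± 0.19 (SD, n = 6), 1.48-fold apart (95% interval -0.74 to -0.40, limma, adjusted p = 0.00462), and the call held without each mouse in turn. Kcnmb4, the neural beta subunit of the large-conductance calcium-activated channel, was positive in 6 of 6 mice at 0.25 ± 0.12 (SD, n = 6, adjusted p = 0.0142). Mouse 3 was at 0.02 and the other 5 were between 0.23 and 0.34. The call ended without mouse 4 (adjusted p = 0.052). The other 7 rows of this group did not pass and had means between -0.15 and 0.06. They included Kcnmb4os1, an antisense transcript of Kcnmb4 and no subunit, Kcnab2, a cytoplasmic beta subunit, at -0.15 ± 0.30 (SD, n = 6), and Kcne2, a beta subunit of gastric and heart channels, which had the widest spread of them. Kcne2 ran from -0.86 in mouse 3 to 0.50 in mouse 1 (mean -0.06 ± 0.51, SD, n = 6, adjusted p = 0.828).

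Kcnn4, the intermediate-conductance calcium-activated potassium channel of lymphocytes, macrophages and secretory epithelia, was the 1 gene of 5 in its group to pass. Its ratios were -0.80, -0.33, -0.12, -0.40, -0.16 and -0.09 in mice 1 to 6. All were negative, with mouse 1 lowest, and the mean was -0.32 ± 0.27 (SD, n = 6, 1.24-fold, limma, adjusted p = 0.0468). It did not pass without mouse 2, 4, 5 or 6 (adjusted p between 0.0609 and 0.122). Kcna3 and Kcnn4 lay on the side of the macrophage markers, 7 of 12 of which passed, all negative (per mouse -1.70 to 0.13). T and B cell markers had 1 call among 10, Cd247 on the positive side with a value in 4 mice. Their median mean was nevertheless negative, at -0.14, and they were between -0.52 and 0.25 per mouse. Smooth muscle markers, given for the channels of vessels and airway muscle, had 1 call on each side among 8 (per mouse -0.29 to 0.13). Shares over all tested probes were 12% for positive and 12.3% for negative calls. The part of the marked cell types in the channel ratios was not tested. The other genes grouped with Kcnn4, which were Kcnn1, Kcnn2, Kcnn3 and Kcnu1, had means between -0.07 and 0.08.

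Tandem-pore-domain channels give cells a resting potassium leak. Of 5 measured, 2 passed, on opposite sides, and Kcnk7, a member with no known current of its own, came close at 0.16 ± 0.14 (SD, n = 6, adjusted p = 0.0716). Kcnk4, a mechanosensitive member, was at 0.29, 0.44, 0.39, 0.11, 0.23 and 0.39 in mice 1 to 6 (mean 0.31 ± 0.12, SD, n = 6, limma, adjusted p = 0.00827), with every mouse above 0.1. Kcnk1, a weakly conducting member of kidney and lung epithelia among others, was at -0.28, -0.20, -0.29, -0.49, -0.02 and -0.43 in mice 1 to 6. All were negative, mouse 5 only just, and its mean of -0.29 ± 0.17 (SD, n = 6) passed (adjusted p = 0.0194) but not without mouse 4 or mouse 6 (adjusted p = 0.0594 and 0.0564). Kcnk2, a stretch- and lipid-sensitive channel of heart, brain and smooth muscle, had the largest SD of the 85 genes. Mice 1, 2 and 4 were high, with values of 1.51, 0.70 and 0.73, and mice 3, 5 and 6 low, with -0.53, -0.36 and -0.18. They lay on both sides of 0, and the mean of 0.31 ± 0.80 (SD, n = 6) had a 95% interval of -0.32 to 0.94 and did not pass (adjusted p = 0.426).

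**Figure D3:**
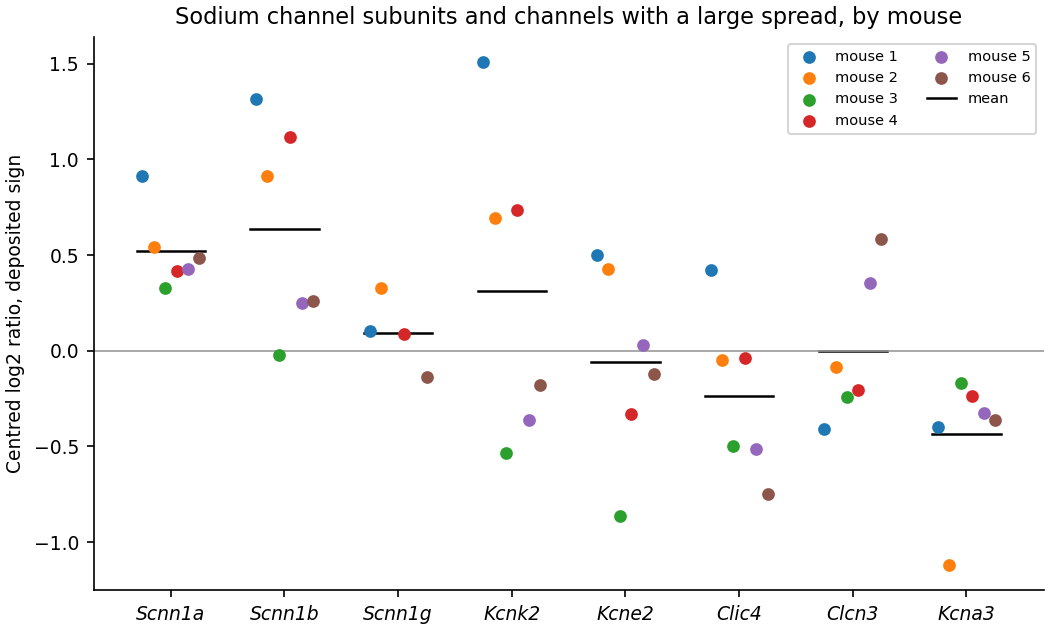
Centred log2 ratio (vertical axis, deposited sign) by mouse for the epithelial sodium channel subunits and for Kcnk2, Kcne2, Clic4, Clcn3 and Kcna3, with the mean as a black line. Mice 1, 2 and 4 are above mice 3, 5 and 6 in Scnn1b and Kcnk2, whereas in Clcn3 mice 5 and 6 lie above the rest. Across all probes on 6 arrays, mice 1, 2 and 4 also correlated more with each other than with mice 3, 5 and 6.

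None of the 10 inward rectifiers, which stabilise the resting potential or couple it to metabolism and receptors, passed in limma, and 1 had an unadjusted p under 0.05. Over all probes 24.4% passed and 39.2% had an unadjusted p under 0.05, and the family was not tested against these shares. The means of the 10 genes ran from -0.16 to 0.16. The lowest was Kcnj4, a strong rectifier, at -0.16 ± 0.26 (SD, n = 5, -0.58 to 0.11, adjusted p = 0.274). Kcnj2, a strong rectifier of heart and macrophages, was at -0.06 and its interval was -0.18 to 0.05. Kcnj8, the pore of the vascular ATP-sensitive channel, was at 0.05 (interval -0.07 to 0.17), and Kcnj15 at -0.07 (interval -0.18 to 0.04). For these 3, mean ratios beyond about 0.2 on the log2 scale lay outside the intervals. The intervals leave out the spread between control mice, and a dim spot is not separable from a bright one.

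Among the calcium channel genes, 1 pore subunit and 1 accessory subunit passed. Cacna1h, the pore of a low-threshold T-type channel, had ratios of 0.22, 0.39, 0.27, 0.26, 0.22 and 0.37 in mice 1 to 6. The 6 mice lay close together on the positive side, and the mean of 0.29 ± 0.08 (SD, n = 6) passed (1.22-fold, limma, adjusted p = 0.00552), also without each mouse in turn. The other 4 pore subunits had means between -0.12 and 0.02. Cacna1c, the L-type pore of heart and smooth muscle, was at -0.03 ± 0.07 (SD, n = 6) with an interval of -0.12 to 0.06 (adjusted p = 0.606). Its probe stands 18 rows from that of Hsp90b1, a chaperone with a mean of -1.19, and the ratio is uncertain for the same reason as that of Kcnc1. The same holds for Kcnh1, a voltage-gated potassium channel of brain at 0.09 with no call, 18 rows from Cyp2f2, a club cell enzyme with a mean of 1.33. Of the 10 genes grouped as accessory subunits, 1 passed: Cacnb4, a beta subunit best known from brain, at -0.28, -0.45, -0.07, -0.39 and -0.12 in mice 1, 3, 4, 5 and 6. All 5 were negative (mean -0.26 ± 0.17, SD, n = 5, adjusted p = 0.0372), but the call was lost without each of the 6 mice in turn, also without mouse 2, which had no value for it (adjusted p between 0.0507 and 0.1), and with scaled, quantile-normalized or weighted arrays (adjusted p = 0.0568, 0.0774 and 0.0516). Cacna2d3, an auxiliary subunit best known from neurons, was positive in 6 of 6 mice at 0.13 ± 0.08 (SD, n = 6) and stayed just outside the threshold (adjusted p = 0.0575). Cacna2d1, the auxiliary subunit bound by gabapentin, was at 0.03 (-0.10 to 0.13, adjusted p = 0.622).

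The ClC family holds plasma membrane chloride channels and chloride-proton exchangers of endosomes and lysosomes, and 2 of its 6 genes passed, both positive. Clcn2, a chloride channel of epithelia opened by hyperpolarisation and cell swelling, had ratios of 0.44, 0.24, 0.25, 0.21, 0.16 and 0.19 in mice 1 to 6. Mouse 1 was the highest and the other 5 lay between 0.16 and 0.25. The mean of 0.25 ± 0.10 (SD, n = 6), 1.19-fold apart, passed (limma, adjusted p = 0.0108) and did so without each mouse in turn. Clcn7, the lysosomal exchanger of osteoclasts and macrophages, was at 0.15 ± 0.09 (SD, n = 6) on the probe used (adjusted p = 0.0421). Its other probes disagreed, with means of -0.03 and 0.03 and no call, the mean over all its probes was 0.05 (adjusted p = 0.305), and the call was lost without mouse 1, 3, 4, 5 or 6 (adjusted p between 0.059 and 0.121). Clcn3, an exchanger of endosomes and synaptic vesicles, was split between mice: 0.35 and 0.59 in mice 5 and 6, against -0.41, -0.09, -0.24 and -0.21 in mice 1 to 4. Its mean was -0.0008 ± 0.39 (SD, n = 6) with an interval of -0.31 to 0.31.

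No TRP channel passed in limma on the probes used, and 1 of the 9 had an unadjusted p under 0.05, Trpv6, a calcium-selective channel of absorbing epithelia, at 0.13 ± 0.11 (SD, n = 6, adjusted p = 0.0927). The 9 means lay between -0.10 and 0.13. For comparison, 24.4% of all probes passed and 39.2% had an unadjusted p under 0.05, and the family was not tested against these shares. Trpv4, an osmo- and mechanosensitive channel of airway epithelium and lung endothelium, was at 0.05 with an interval of -0.10 to 0.21. It was positive in mice 1, 2 and 4 and negative in mice 3, 5 and 6. Trpv2, found in macrophages among other cells, was at -0.06 (interval -0.20 to 0.08). Trpc6, a diacylglycerol-activated channel of vascular smooth muscle and leukocytes, ran from -0.24 in mouse 6 to 0.53 in mouse 1 (mean 0.09 ± 0.26, SD, n = 6, adjusted p = 0.498). The probes of Trpc2, a pheromone-sensing channel in rodents, disagreed: that used had a mean of 0.03 and no call, while the second, also measured in 5 mice, had 0.19 ± 0.04 (SD, n = 5) and passed (limma, adjusted p = 0.0191). Trpc4ap, a protein that binds a TRP channel and was taken in by its symbol, was at 0.11 ± 0.06 (SD, n = 6) in 6 positive mice and did not pass (adjusted p = 0.0712).

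**Figure D4:**
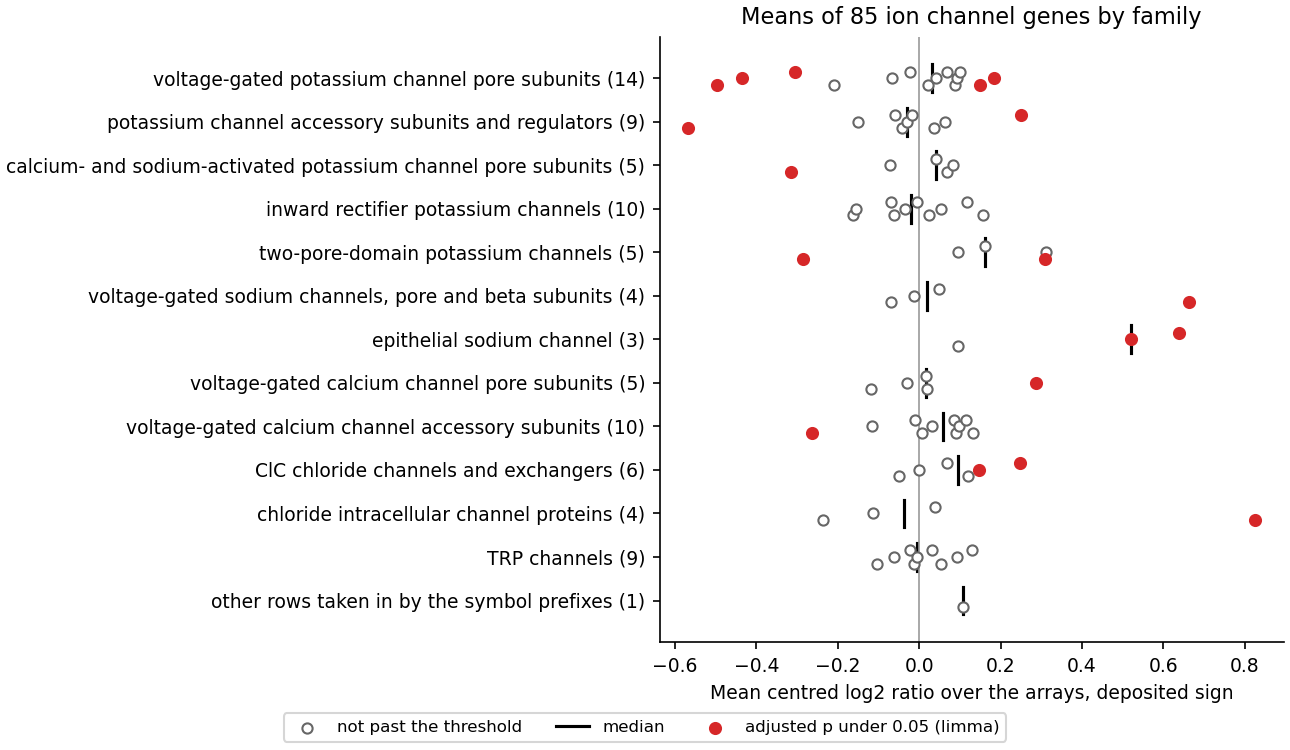
Mean centred log2 ratio (horizontal axis, deposited sign) of each of the 85 genes, by family with the number of genes in brackets. Filled red points passed an adjusted p of 0.05 in limma, open points did not, and the black bar is the family median. Epithelial sodium channel subunits have a median of 0.52, while TRP channels and inward rectifiers hold no filled point. Over all tested probes 24.4% passed, and no family was tested against that share.

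Genes that work beside these channels were described from 2 lists. Of 20 measured partners of epithelial ion transport (pumps, cotransporters, water channels and regulators), 4 passed, 2 on each side, with a median mean of 0.01. Fxyd1, a regulator of the sodium pump in heart and muscle, was the highest at 0.78 ± 0.30 (SD, n = 6, limma, adjusted p = 0.00546). Fxyd3, of the same regulator family in epithelia, was at 0.30 ± 0.08 (SD, n = 4, adjusted p = 0.0156) and Fxyd6 at -0.21 ± 0.11 (SD, n = 6, adjusted p = 0.0213). Cftr, the chloride channel mutated in cystic fibrosis, was negative in 6 of 6 mice at -0.18 ± 0.06 (SD, n = 6, adjusted p = 0.0159). Cftr did not pass without mouse 2 or mouse 4 (adjusted p = 0.054 and 0.053), Fxyd3 without mouse 4 or mouse 5 (0.066 and 0.054), and Fxyd6 without mouse 2, 4 or 6 (between 0.0558 and 0.0688). Of 17 measured genes of calcium stores and calcium signals, 6 passed, 3 on each side, with a median mean of -0.02. For comparison, 24.4% of all tested probes passed, 12% with a positive mean and 12.3% with a negative mean. Neither list was tested against these shares. Atp2a1, the calcium pump of fast skeletal muscle, was at -1.30 ± 0.73 (SD, n = 6, limma, adjusted p = 0.0117) with 5 of 6 mice negative and mouse 3 at 0.07 (adjusted p = 0.0526 with ordinary variances), and Atp2b1, the calcium pump of the plasma membrane, at -0.43 ± 0.21 (SD, n = 6, adjusted p = 0.00975). Itpr2, a calcium release channel activated by inositol trisphosphate, was at 0.34 ± 0.24 (SD, n = 6, adjusted p = 0.0303) and Fkbp1b, which binds the ryanodine receptor, at 0.24 ± 0.14 (SD, n = 6, adjusted p = 0.0226). Itpr2 lost its call without mouse 2, 4 or 5 (adjusted p between 0.0584 and 0.0919) and Fkbp1b without mouse 2, 4 or 6 (adjusted p between 0.0553 and 0.0736), and both lost it with ordinary variances (adjusted p = 0.083 and 0.0573).

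The calls differed in how they held. Of the 18 genes, 9 passed without each mouse in turn and in every other setting that tested them: Clic3, Scn7a, Scnn1a, Kcnk4, Cacna1h, Clcn2, Kcne4, Kcnh7 and Kcnc1. Kcnc1 was not tested in the setting that left out probes near a stronger one, and its ratio stays uncertain for its place near Gbp3. With ordinary gene-wise variances in place of the moderated ones, Scnn1b, Kcna3, Kcnn4, Kcnk1, Cacnb4 and Clcn7 did not pass (adjusted p between 0.0566 and 0.115). Leaving out mouse 4 left 10 calls and leaving out mouse 6 left 11, against 18 over all mice. The pool is 1 control sample, so these tests leave out the spread between control mice. Every setting used the same pool and no dye swap. An offset of the pool or of a dye that all arrays share would therefore remain in each setting, and it was not tested.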

How the data were processed

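The deposited table holds 1 log ratio per probe and array from dual-colour hybridisations of amplified lung RNA, 6 OVA mice against 1 control pool. The deposited values, read as log2, are log ratios that the authors made from the 2 channels of each array. The sources used here do not give the log base, dyes, direction, scanner, normalization or spot filter, and no intensities or dye swap were used. Probes were named from the platform annotation (14722 of 17280 have 1 symbol, 1 several and 2557 none), and 14445 symbols were found in RefSeq's gene table, used for names. Left out were 170 rows of 10 repeated sequences and 4 rows of plant sequences. Ratios were centred on each array's median, and the 11629 probes with a value on at least 4 arrays were tested against 0 in limma 3.58.1 (R 4.3.3, lmFit and eBayes) with Benjamini-Hochberg adjustment and a threshold of 0.05. A gene with several probes was represented by 1 probe, and disagreeing probes are named. The mice are separate per the labels, and the number of arrays limits the precision.

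The channel genes and all lists were chosen with earlier results of these data known. Genes named are up to 2 called genes per family by size, the largest where none was called, the 5 with the largest SD, a set of channels of lung, immune and heart cells, and up to 4 called genes of each partner list. Kcnc1, Kcnq5, Kcnh3, Trpc2, Kcnh1, Kcna5, Kcna6, Kcnh2, Kcnab2, Kcnk7, Cacna2d3, the genes of the marker lists given singly, and those measured on few arrays were named after their values were seen. Alternatives were no centring, scaling or quantile normalization, other array minimums, array weights, a robust fit, ordinary variances, the mean of a gene's probes, leaving out probes near a stronger one, and leaving out each mouse.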

Additional observations from a re-analysis of the deposited data

Results flagged for a closer look

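In 7 of the 85 channel genes, 1 mouse lay farther from the rest than Dixon's critical value, where chance flags about 1 in 20 groups. The share flagged over all tested probes was not computed, so the count is no result about channels. Kcna3 was at -1.12 in mouse 2, with the other 5 between -0.40 and -0.17. Clcn2 was at 0.442 in mouse 1, with the others between 0.16 and 0.25. Kcnmb4 was at 0.021 in mouse 3, with the others between 0.23 and 0.34. Scnn1a was at 0.916 in mouse 1, with the others between 0.33 and 0.54. The other 3, named after their values were seen, had no call: Kcnn2 was at 0.274 in mouse 6, Trpm6 at -0.308 in mouse 6 and Cacng7 at 0.083 in mouse 2.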

How the results depend on the processing

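No paired analysis was possible because there is 1 group and its comparison is a single pool. Over 42 genes and 16 settings, 604 of 665 comparisons kept direction and side of the threshold, 54 lost the call and 7 changed sign. The 42 include genes with no call, which had none to lose, so the 604 do not measure how well calls held. Leaving out each mouse gave 10 to 18 called channel genes, 3 to 6 negative and 7 to 12 positive, 1332 to 3017 called probes overall and 3 to 15 called partner genes. The counts without mouse 4 were 10 channel genes, 1332 probes and 3 partners. Without mouse 2, 5 partner genes and 1374 probes were called. Ordinary variances left 4 negative channel genes and 1444 probes. In the other settings 16 to 19 channel genes were called, with Cacna2d3 and Kcnk7 gained under array weights. Ordinary variances, with 14 called, added Cacng3 and Cacng6, and leaving out mouse 3 added Cacna2d3, Clcn1 and Kcnk7. The sign changes were in genes with no call: Kcne2 was between -0.17 and 0.10 on leaving out mice (0.10 without mouse 3), Clcn3 at 0.017 with array weights and between -0.12 and 0.081 on leaving out mice, and Kcnq1 between -0.0016 (without mouse 6) and 0.072. The causes were not tested. With no intensities, dim spots limit an unknown share of the ratios, and 33 of 119 channel genes lacked enough arrays.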

Other observations

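Several channel genes with values on 2 or 3 arrays were not tested, and their ratios are given as they stand. Trpc4, a receptor-operated TRP channel of endothelium and smooth muscle, was at -0.32, -0.26 and -0.27 in mice 2, 3 and 4, and Scn3a, a neuronal sodium channel, at -0.16, -0.13 and -0.06 in mice 2, 5 and 6. Kcnj14, an inward rectifier, was at 0.11, 0.12 and 0.12 in mice 1, 3 and 6. Kcnab3, a beta subunit of voltage-gated potassium channels, was at 0.06, 0.28 and 0.09 in mice 1, 2 and 5. Kcnd2, which carries a transient potassium current in neurons and heart, had both signs, at 0.06, 0.07 and -0.09 in mice 1, 5 and 6. Cacng5 lay at -0.05, 0.03 and 0.03 in mice 1, 5 and 6. Cacna1d, an L-type calcium channel, was at 0.18 and -0.14 in mice 1 and 6, and Clcn5, an endosomal exchanger, at -0.03 and -0.02 in mice 3 and 5. The 9 genes with a probe but no value were Kcna2, Kcnj3, Kcnk3, Kcnk5, Kcnma1, Kcnmb1, Kcns1, Cacng4 and Scn11a.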
